A study of Mus musculus with 8 samples.

Results

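The genes described here make and sulfate glycosaminoglycans, the long sugar chains that proteoglycans of cartilage carry. They are 38 named genes, sorted by pathway step into the supply of sugar and sulfate donors (7 genes), the linker to the core protein (5), the chondroitin chain (6), the modification of chondroitin and dermatan (9), the heparan chain (5) and the modification of heparan (6). Each gene was read from the probe sets annotated to it alone, with the brightest over the 8 arrays taken where there were several. This gave a value for 36 of the 38 genes, out of 18193 genes named in that way on the arrays, and 34 of them were bright enough to be tested. No probe set of the annotation used here was named for Xylt1 or Ndst1, so these 2 were not analysed here.

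A chondroitin or heparan chain starts with a short linker of sugars built on a serine of the core protein, grows by alternating sugars handed over from nucleotide donors in the Golgi, and is then sulfated and epimerised while it grows. Sulfate reaches the enzymes as an activated donor that cells make from sulfate taken up from outside. In cartilage the sulfated chondroitin chains of aggrecan hold water and so let the tissue resist compression, while heparan sulfate binds growth factors and shapes how far they spread. Inherited defects in many of these genes cause skeletal dysplasias.

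Primary chondrocytes were obtained by enzymatic digestion of rib cages from mouse embryos (strain FVB, E18.5, a late stage of gestation). Embryos of 4 litters were sorted by genotype, so that each litter gave 1 pool labelled control (wild type) and 1 labelled transgenic (Hoxd4 transgenic), 8 pools and 8 one-colour Affymetrix arrays in all. The transgene's promoter and the size of each pool were not stated in the sources used here. The design sets embryos carrying a transgene for Hoxd4, which encodes a homeobox transcription factor, against wild-type littermates. Signals are MAS5 signals, a linear brightness scaled to the same trimmed mean of 500 on every array, and signals of different probe sets cannot be set against each other, since probes differ in how well they bind.

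The brighter of 2 probe sets assigned to Hoxd4 (and jointly to its neighbour Hoxd3) read 27.3, 42.6, 4.10 and 256 in controls, litters 1 to 4, against 94.1, 415, 172 and 13.0 in arrays labelled transgenic. It was brighter in the array labelled transgenic of litters 1, 2 and 3 and dimmer in that of litter 4, and its exact two-sided permutation p was 0.40 (the smallest possible is 0.0286). The groups below are therefore those the labels give, and every direction rests on the labels. The 14 chondrocyte markers on the list, among them Col2a1, Acan and Sox9, were all bright enough to be tested, and their summed signal lay between 317673 and 354671 in controls and between 335590 and 358887 in arrays labelled transgenic. Markers of other cells were present as well: 8 of 8 fibroblast, 7 of 8 skeletal muscle, 7 of 8 endothelial, 4 of 7 macrophage, 4 of 6 osteoblast and 3 of 7 erythroid genes were bright enough to be tested, while Tie1, Actn3, Hba-a1, Cd68, Aif1 and C1qa stayed below that level. Summed endothelial signals ranged from 1698 to 2333 in controls and from 1328 to 2144 in arrays labelled transgenic, and erythroid ones from 6480 to 13741 and from 5361 to 10674. Although these ranges overlap, both sums were lower in the array labelled transgenic of all 4 litters. The osteoblast sum was lower in all 4 litters too, with ranges of 1282 to 1770 in controls and 1280 to 1565 in arrays labelled transgenic. Of the 4 tested osteoblast genes 2 were higher and 2 lower. All 3 tested erythroid genes, Hbb-b2, Alas2 and Slc4a1, were lower in 4 of 4 litters. Their unadjusted p values in limma were 0.31, 0.23 and 0.20 in the chosen fit, which has no block. With the litter as a block they were 0.0023, 0.0014 and 0.030. The endothelial gene Cdh5 was lower without overlap of the groups (log2 fold change -0.60). Of the 7 tested endothelial genes 5 were lower and 2 higher, Pecam1 at 0.02 and Tek at 0.06. Tie1, too dim for the test, was higher in 4 of 4 litters. None of the tested erythroid and endothelial genes passed the adjusted threshold. Skeletal muscle genes ran partly the other way, with 5 of 7 tested higher and 2 lower. Myf5 and Ckm were at 0.43 and 0.37, each higher in 3 of 4 litters. Their unadjusted p values in limma were 0.023 and 0.10, and with the litter as a block 0.0077 and 0.022. Neither passed the adjusted threshold. Sex-linked transcripts also moved with the labels over the whole comparison. The Y-linked genes Eif2s3y, Kdm5d and Uty were higher in the array labelled transgenic of 4 of 4 litters, by 0.92, 0.75 and 0.86 on the log2 scale, and the groups did not overlap for Eif2s3y and Uty. In such a digest, fewer cells of a type and less RNA per cell cannot be told apart, and the part of these cells and of the sex of the pooled embryos in the values below was not tested.

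Across the pathway, the enzymes had nearly the same signals in both groups. None of the 34 tested genes passed an adjusted p of 0.05 in limma (transgenic minus control, Benjamini-Hochberg over 22518 tested probe sets), as none of all tested probe sets did (0%). The adjusted p was 0.9997 for every one of the 34. An unadjusted p under 0.05 was found for 1 of 34, Chst12, beside 3.29% of all tested probe sets, and with the litter as a block again for 1 of 34, beside 5.54%. Fitted log2 fold changes ran from -0.17 to 0.22 with a median of 0.02, beside a median of 0.003 over all tested probe sets. Of the 34 genes 21 were higher and 13 lower, beside 51.2% higher of all tested. The direction of the small median turned to -0.0025 without the array labelled transgenic of litter 1. For no gene did the 2 groups of signals fall apart without overlap (2.27% of all tested did).

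The data bound the size of a difference as read by the brightest probe set of each gene. For 33 of the 34 genes the 95% interval of the log2 fold change lay wholly within a 1.5-fold change either way, which held for 85.5% of all tested probe sets, and for 34 of 34 it lay within a 2-fold change. The exception was Hs6st1, a heparan 6-O-sulfotransferase, whose interval reached 0.585. Each bound is for 1 gene at a time, on the scale of log2(signal + 32), with groups taken from the labels. A dimmer probe set of Chpf2 had an interval that reached 0.72. The share of 85.5% covers all tested probe sets, dimmer ones of a gene included, so it is not a like-for-like background.

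**Figure D1:**
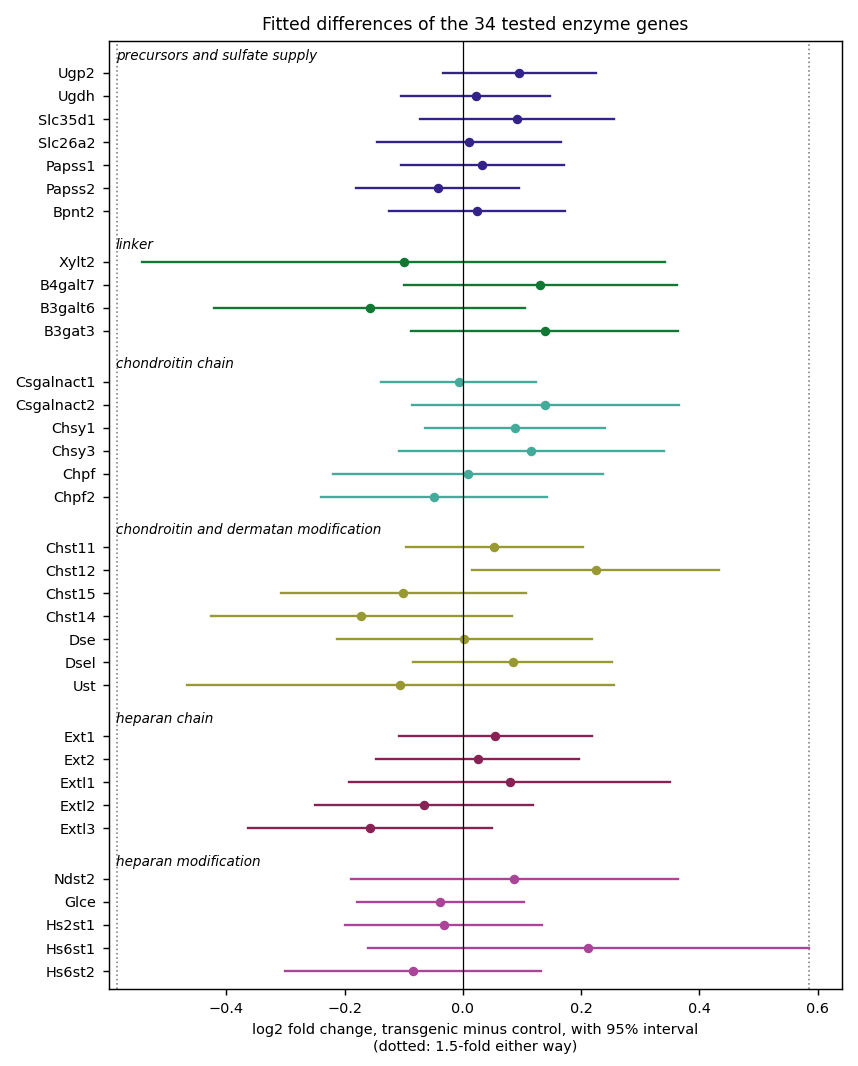
Log2 fold changes (transgenic minus control, horizontal axis) of the 34 tested genes by pathway step, with 95% intervals from limma; dotted lines mark a 1.5-fold change either way. All intervals but that of Chst12 cross 0, and all but that of Hs6st1 end inside the dotted lines.

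The 7 genes that supply sugar and sulfate donors varied little between arrays. Ugp2, which makes UDP-glucose, had signals of 5880, 5310, 5410 and 5691 in controls of litters 1 to 4 and of 5998, 5855, 5750 and 6207 in arrays labelled transgenic. The array labelled transgenic was the brighter in all 4 litters, though the groups overlapped, and the log2 fold change was 0.10 (95% interval -0.03 to 0.22). Ugdh, which oxidises UDP-glucose to UDP-glucuronic acid, ranged from 10235 to 11503 over the 8 arrays, with a log2 fold change of 0.02. Slc35d1, the transporter that brings UDP-sugars for chondroitin into the secretory pathway, had signals of 2409, 2249, 2604 and 2505 in controls and of 2778, 2618, 2343 and 2684 in arrays labelled transgenic. It was higher in litters 1, 2 and 4 and lower in litter 3 (log2 fold change 0.09, 95% interval -0.07 to 0.26).

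Sulfate supply was likewise even. Slc26a2, the sulfate importer mutated in diastrophic dysplasia, had signals of 5669, 4926, 5355 and 5052 in controls and of 5881, 5329, 4931 and 5035 in arrays labelled transgenic, a log2 fold change of 0.01 (95% interval -0.15 to 0.17). Papss2, the synthase of the activated sulfate donor PAPS that cartilage depends on, had signals of 16927, 16206, 16036 and 18191 in controls and of 17686, 16819, 15799 and 15134 in arrays labelled transgenic. Its difference ran up in litters 1 and 2 and down in litters 3 and 4 (log2 fold change -0.04, 95% interval -0.18 to 0.10). Papss1, the other PAPS synthase, ranged from 4322 to 5053 over the 8 arrays. Bpnt2, the Golgi phosphatase that clears the spent donor, had signals of 7370, 7468, 7817 and 7542 in controls and of 8760, 7228, 7635 and 7167 in arrays labelled transgenic. Only its array labelled transgenic of litter 1 stood above the controls, and the log2 fold change was 0.02 (95% interval -0.13 to 0.17).

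**Figure D2:**
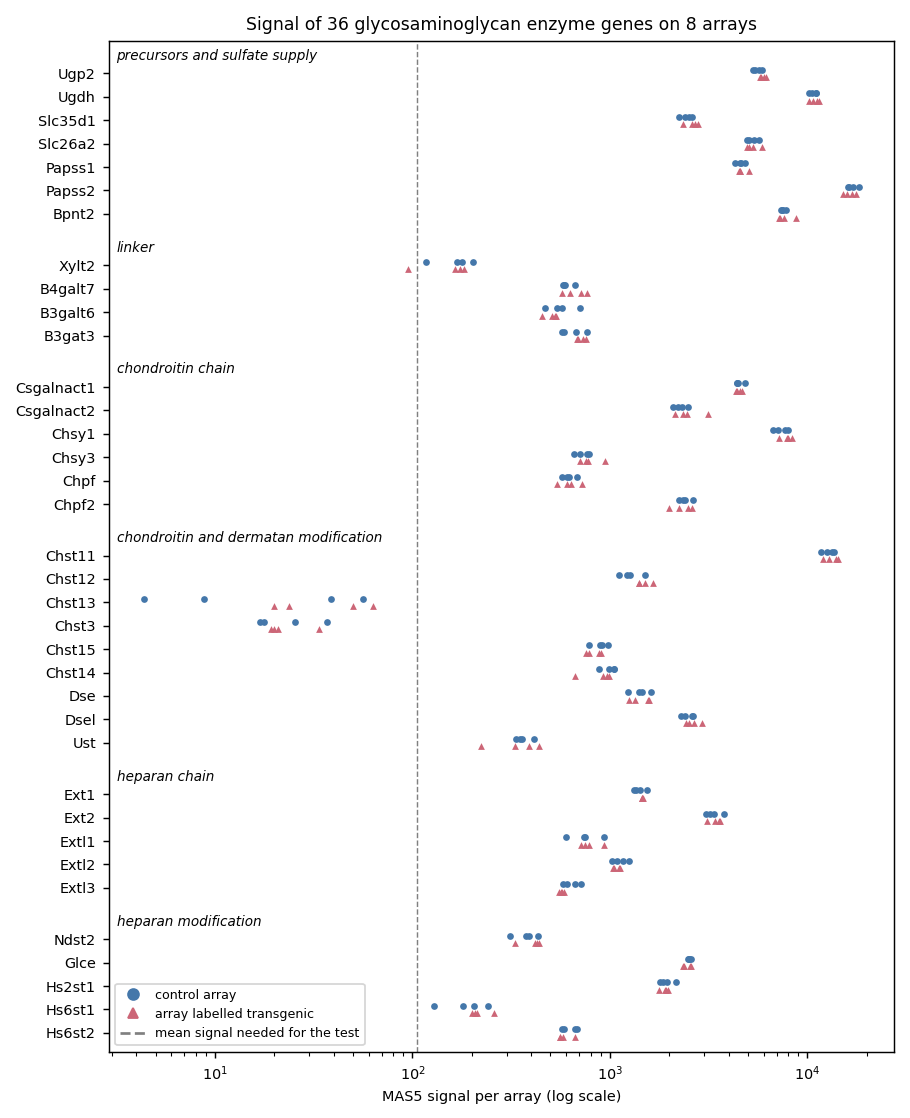
MAS5 signal (log scale, horizontal axis) of the 36 genes with a probe set of their own on the 4 control arrays (circles) and the 4 arrays labelled transgenic (triangles); the dashed line is the mean signal of 105.9 needed for the test. Circles and triangles overlap in every row, and Chst13 and Chst3 lie left of the line on all 8 arrays.

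Of the linker enzymes, 2 were higher and 2 lower. B3gat3, which adds the glucuronic acid that closes the linker, had signals of 764, 570, 674 and 586 in controls and of 752, 732, 689 and 678 in arrays labelled transgenic. The 4 values of the latter group lay within the range of the controls (log2 fold change 0.14, 95% interval -0.09 to 0.36). B3galt6, which adds the second galactose, had signals of 469, 575, 537 and 706 in controls and of 506, 525, 453 and 536 in arrays labelled transgenic, lower in litters 2, 3 and 4 (log2 fold change -0.16, 95% interval -0.42 to 0.10). B4galt7, the enzyme of the first galactose, gave opposite signs by its 2 probe sets, 0.13 (95% interval -0.10 to 0.36) for the brighter and -0.12 (95% interval -0.47 to 0.22) for the dimmer. Xylt2, a xylosyltransferase that starts the linker, was dim, ranged from 95 to 202 and had the widest interval of this step (-0.54 to 0.34).

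Chondroitin chain enzymes gave 4 higher and 2 lower of 6. Chsy1, a chondroitin synthase, had signals of 7744, 6719, 7073 and 7956 in controls and of 7947, 7146, 7919 and 8322 in arrays labelled transgenic. The array labelled transgenic was brighter in 4 of 4 litters by 0.04 to 0.16 on the log2 scale, while the groups overlapped (log2 fold change 0.09, 95% interval -0.06 to 0.24). Csgalnact1, which adds the first N-acetylgalactosamine and which mouse cartilage needs for normal chondroitin sulfate levels, had signals of 4389, 4478, 4812 and 4377 in controls and of 4642, 4366, 4543 and 4406 in arrays labelled transgenic. Its highest array was only 1.10 times its lowest, and the log2 fold change was -0.01 (95% interval -0.14 to 0.12). Csgalnact2, its paralogue, had signals of 2080, 2204, 2305 and 2479 in controls and of 2457, 3143, 2138 and 2347 in arrays labelled transgenic. The array labelled transgenic of litter 2 stood above all others, and the log2 fold change was 0.14 (95% interval -0.09 to 0.37). Chsy3, a further chondroitin synthase, lay between 656 and 939, and the polymerising factors Chpf and Chpf2 between 542 and 726 and between 1993 and 2626, with log2 fold changes of 0.12, 0.01 and -0.05.

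Among the enzymes that modify chondroitin and dermatan, Chst12 had the largest positive difference of all 34 genes and Chst14 the largest negative one. These ranks are by the brightest probe set of each gene. Over all 58 tested probe sets the ends were dimmer ones of Chpf2, at 0.25 (95% interval -0.23 to 0.72), and of Hs2st1, at -0.21 (95% interval -0.54 to 0.13). Chst12, a chondroitin 4-O-sulfotransferase, had signals of 1502, 1270, 1114 and 1223 in controls and of 1506, 1653, 1401 and 1410 in arrays labelled transgenic. The array labelled transgenic was brighter in litters 2, 3 and 4 by 0.37, 0.32 and 0.20 on the log2 scale and level with its control in litter 1, whose control array was the brightest of its group. The mean was 1277 ± 164 (SD, n = 4) for control arrays against 1493 ± 117 (SD, n = 4) for those labelled transgenic, a log2 fold change of 0.22 (95% interval 0.01 to 0.43). Over 19 alternative settings its log2 fold change lay between 0.16 and 0.30, and its lowest adjusted p in limma was 0.84. Its unadjusted p was above 0.05 when control array 2, 3 or 4, array 1 or 2 labelled transgenic, or litter 2, 3 or 4 was left out. Chst14, the dermatan 4-O-sulfotransferase, had signals of 1050, 1043, 990 and 881 in controls and of 669, 919, 984 and 961 in arrays labelled transgenic (log2 fold change -0.17, 95% interval -0.43 to 0.08). Its difference rested mostly on litter 1, where it was -0.63, and it ran up by 0.12 in litter 4.

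The 250 bases before the start of Chst12 and of Chst14 are shown because these 2 genes mark the ends of the range by brightest probe sets. They come from RefSeq on GRCm38.p6, for Chst12 chr5:140505359-140505608 and for Chst14 chr2:118926247-118926496, both on the plus strand, with capitals marking GGGCGG, the GC box, on either strand.
Chst12: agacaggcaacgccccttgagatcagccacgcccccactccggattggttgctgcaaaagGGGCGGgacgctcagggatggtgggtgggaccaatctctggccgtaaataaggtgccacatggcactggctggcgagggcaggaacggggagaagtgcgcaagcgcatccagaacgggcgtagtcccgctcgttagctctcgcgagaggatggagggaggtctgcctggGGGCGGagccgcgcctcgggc
Chst14: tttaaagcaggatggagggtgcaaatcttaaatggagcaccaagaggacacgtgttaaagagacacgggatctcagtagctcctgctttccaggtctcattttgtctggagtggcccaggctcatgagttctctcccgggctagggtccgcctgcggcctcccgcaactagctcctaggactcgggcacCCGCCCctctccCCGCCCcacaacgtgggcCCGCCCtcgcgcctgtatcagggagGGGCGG
The first window holds 2 GC boxes and the second 4, and neither holds TAAT, the core that homeodomain proteins bind, on either strand. RefSeq promoters were found for 30 of the 38 genes, 38 windows in all. GGGCGG was present in 65.8% of these windows and in 32.7% of all 32851 promoter windows of that length, and TAAT in 26.3% and 54.9%. The windows of the enzyme genes were also richer in G and C, with a median of 65.0% against 52.4%, and its part in the shares of both motifs was not tested. These are counts of letters and say nothing of binding.

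Chst11, the chondroitin 4-O-sulfotransferase that mouse cartilage requires, had signals of 13628, 11749, 13342 and 12534 in controls and of 14344, 13940, 12055 and 12863 in arrays labelled transgenic. The groups overlapped throughout, and the log2 fold change was 0.05 (95% interval -0.10 to 0.20). Chst3, the chondroitin 6-O-sulfotransferase mutated in a spondyloepiphyseal dysplasia, was near the floor of the arrays. Its only probe set had signals of 25.3, 37.1, 16.96 and 17.8 in controls and of 19.2, 20.8, 33.8 and 20.0 in arrays labelled transgenic, too dim for the test. Chst13, the remaining 4-O-sulfotransferase, was as dim, from 4.39 to 63.3. Chst15, which adds a second sulfate to 4-sulfated units, gave -0.10 by its brighter probe set and 0.13 by its dimmer one. The dermatan epimerases Dse and Dsel were at 0.002 and 0.08, Dsel being higher in 4 of 4 litters. Ust, the uronyl 2-O-sulfotransferase, ranged from 222 to 435 (log2 fold change -0.11, 95% interval -0.47 to 0.25).

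Heparan chain enzymes were 3 higher and 2 lower of 5. Ext1, a subunit of the heparan polymerase mutated in hereditary multiple exostoses, had signals of 1321, 1422, 1546 and 1349 in controls and of 1460, 1457, 1456 and 1477 in arrays labelled transgenic. All 4 of the latter lay within the range of the controls, and the log2 fold change was 0.05 (95% interval -0.11 to 0.22). Ext2, the other subunit, had signals of 3793, 3065, 3220 and 3374 in controls and of 3605, 3397, 3094 and 3571 in arrays labelled transgenic (log2 fold change 0.02). Extl3, which starts the heparan chain, had signals of 714, 609, 667 and 577 in controls and of 575, 568, 552 and 589 in arrays labelled transgenic. It was lower in litters 1, 2 and 3 and slightly higher in litter 4 (log2 fold change -0.16, 95% interval -0.36 to 0.05). Extl2, an EXT-like transferase that acts on the linker, had signals of 1256, 1020, 1091 and 1169 in controls and of 1033, 1047, 1116 and 1121 in arrays labelled transgenic, a log2 fold change of -0.07 (95% interval -0.25 to 0.12). Its other probe set pointed up, by 0.23 (95% interval -0.10 to 0.57).

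Heparan modifying enzymes were 2 higher and 3 lower of 5. Hs6st1 had signals of 205, 179, 129 and 241 in controls and of 201, 260, 211 and 208 in arrays labelled transgenic. The difference came from litters 2 and 3, at 0.47 and 0.60, and ran down in litters 1 and 4 (log2 fold change 0.21, 95% interval -0.16 to 0.59). Hs6st2, its X-linked paralogue, had signals of 573, 663, 587 and 684 in controls and of 557, 559, 576 and 664 in arrays labelled transgenic. It was the 1 gene of the 34 that was lower in all 4 litters, by 0.03 to 0.23, with a log2 fold change of -0.08 (95% interval -0.30 to 0.13). Beside it, signals of Xist, the RNA of the inactive X chromosome, ran from 5778 to 13760 in controls and were 79.8, 3266, 47.2 and 8209 in arrays labelled transgenic of litters 1 to 4; the labels used here give no sex, and the part of sex in the Hs6st2 values was not tested. Glce, the epimerase of heparan, stayed between 2338 and 2573, Hs2st1, the 2-O-sulfotransferase, between 1778 and 2164, and Ndst2, an N-deacetylase and N-sulfotransferase, between 311 and 438, with log2 fold changes of -0.04, -0.03 and 0.09.

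Within litters the enzymes did not run one way. The median log2 difference over the 34 genes was 0.03, 0.06, -0.02 and -0.01 in litters 1, 2, 3 and 4, with 20, 22, 13 and 16 genes higher in the array labelled transgenic. In all 4 litters 4 genes were higher (Ugp2, Chsy1, Chst12 and Dsel), beside 6.83% of all tested probe sets, and 1 was lower (Hs6st2), beside 6.61%.

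**Figure D3:**
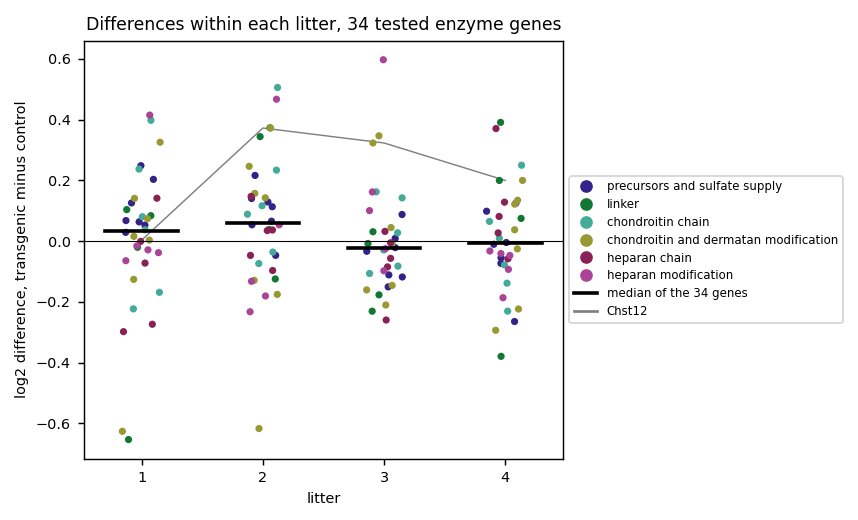
Log2 difference between the array labelled transgenic and the control array of the same litter (vertical axis) for the 34 tested genes in each of 4 litters, coloured by pathway step; black bars are medians and the grey line follows Chst12. The medians lie above 0 in litters 1 and 2 and below it in litters 3 and 4, and Chst12 starts near 0 in litter 1 and is positive in the other 3.

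Differences between litters were tested as well. In a limma F test of the litters, with genotype in the fit, none of the 34 genes passed an adjusted p of 0.05, beside 0.484% of all tested probe sets. An unadjusted p under 0.05 was found for Chsy1 and Extl1, 2 of 34, beside 14.6%. Read over all 58 tested probe sets of these genes, 8 were under 0.05 in that limma test, a share near that background, and 0 passed the adjusted threshold. Among the 8 were dimmer probe sets of Papss2, Chst11 and Slc35d1, at unadjusted limma values of 0.0024, 0.019 and 0.020. Chsy1 was lowest in litter 2 in both groups. Extl1, an EXT-like transferase, had signals of 932, 738, 748 and 601 in controls and of 931, 713, 745 and 786 in arrays labelled transgenic, with litter 1 the highest in both. Over the 8 arrays, the ratio of a gene's highest to its lowest signal ran from 1.10 for Glce and Csgalnact1 to 2.12 for Xylt2, with a median of 1.29, beside a median of 1.47 over all tested probe sets. The enzyme ratios are those of the brightest probe sets, while the background includes dimmer ones of a gene, so the 2 medians are not like for like.

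Several probe sets of a gene read the same RNA samples, so they are not further replicates. Of 71 probe sets of the 36 genes 58 were tested, and 16 genes had several. In 6 of the 16 all tested probe sets had the same sign (Ugp2, Slc35d1, Slc26a2, Bpnt2, B3gat3 and Chst11), and in 10 they had both. All 5 probe sets of Ugp2 lay between 0.02 and 0.14 and the 3 of Slc26a2 between 0.01 and 0.18. The 3 of Papss2 lay between -0.04 and 0.05 and the 4 of Hs2st1 between -0.21 and 0.13. Of the 58 tested probe sets 41 were higher and 17 lower. With probe sets averaged within each gene, 27 of 34 genes were higher (79.4%, beside 48.8% of all genes so tested), so the split of directions depends on which probe sets are read. That average gives equal weight to all probe sets of a gene, those too dim for the test included, such as 1 of Ext2 with a mean signal of 24.2.

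**Figure D4:**
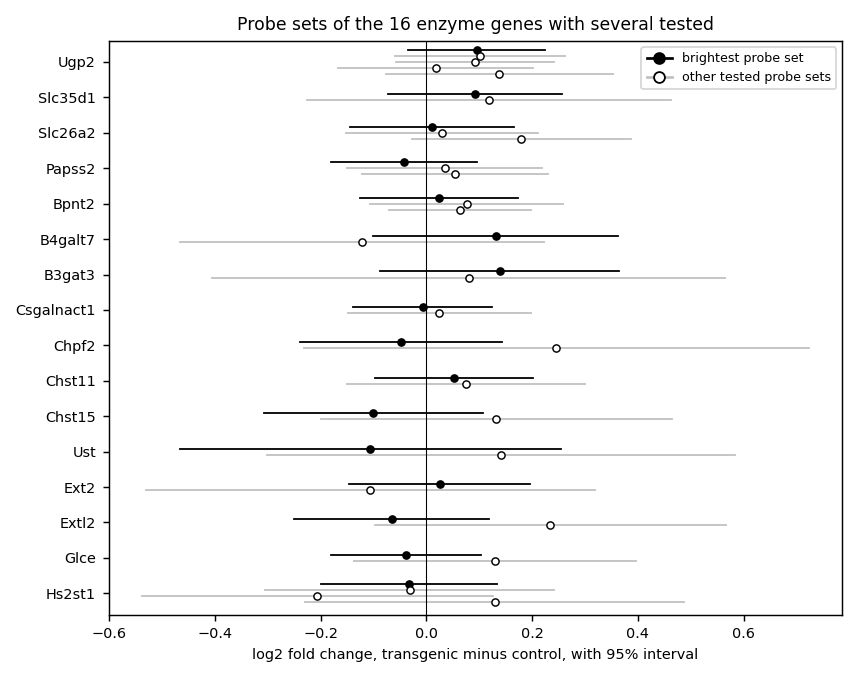
Log2 fold changes (transgenic minus control, horizontal axis) with 95% intervals for every tested probe set of the 16 genes that have several; filled points are the brightest probe set of each gene and open points the others. Intervals of the same gene overlap in every row, and open and filled points lie on opposite sides of 0 in 10 of the 16 genes.

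Other genes of glycosaminoglycan metabolism, 71 in all, were read in the same way. Of these 54 were tested, 0 passed the adjusted threshold in limma, 23 were higher and 31 lower, with log2 fold changes from -0.78 to 0.17 and a median of -0.01. An unadjusted p under 0.05 was found for 1 of the 54, beside 3.29% of all tested probe sets. It was Gfpt1, the entry enzyme of hexosamine synthesis, whose mean signal was 6683 ± 238 (SD, n = 4) for control arrays, against 7373 ± 159 (SD, n = 4) for those labelled transgenic (log2 fold change 0.14, 95% interval 0.02 to 0.26). Its groups did not overlap (2.27% of all tested) and it was higher in 4 of 4 litters (6.83%), and its adjusted p in limma was 0.9997. Of the other precursor genes 6 of 8 were higher, of the other heparan modifying genes 3 of 5, and of the keratan sulfate and other Chst genes 3 of 8. Among hyaluronan synthases Has2 was at 0.17 (95% interval -0.01 to 0.34) and Has1, a dim gene, at -0.78 (95% interval -1.74 to 0.17). The 16 tested core proteins, 10 higher and 6 lower, had a median of 0.03.

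**Figure D5:**
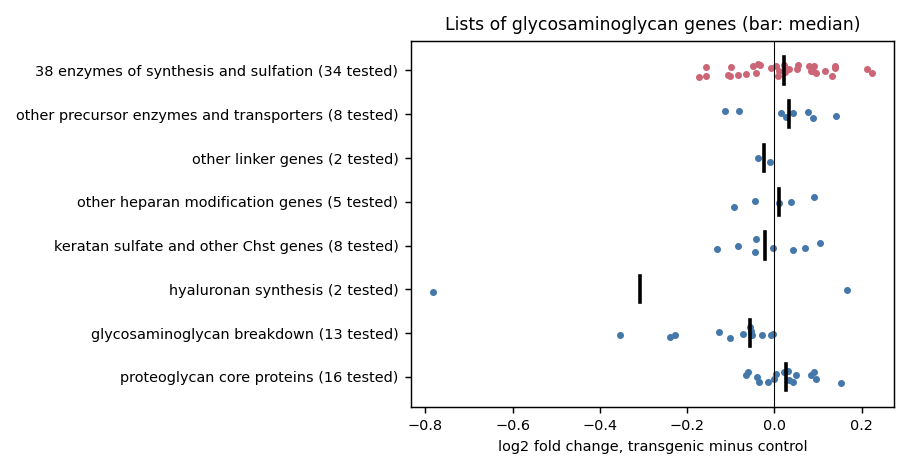
Log2 fold changes (transgenic minus control, horizontal axis) of the tested genes of each list of glycosaminoglycan genes, 1 point per gene, with the median of each list as a bar. Most points lie between -0.2 and 0.2, Has1 lies at -0.78, and the 13 points of the breakdown list all lie below 0.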

How the data were processed

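Gene expression was measured in 8 pools of mouse rib chondrocytes, 1 array each. The authors deposited 1 linear intensity per probe set and array, and the submitters' processing notes name MAS5, with no version in the sources used here. Per the labels' protocols, rib cages were digested with collagenase and trypsin and RNA was extracted with Trizol. MAS5 subtracts mismatch signal, which leaves dim probe sets noisy.

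Of 45101 probe sets 64 manufacturer controls were left out. Signals were turned to log2(signal + 32), which makes differences of dim probe sets smaller, and the 22518 probe sets with a mean over all 8 arrays above the median (105.9) were fitted in limma 3.58.1 (R 4.3.3), using lmFit and a trended eBayes. Fits were tested on simulated data. Genes were named through GEO's platform annotation, with symbols looked up by gene identifier in a RefSeq table of GRCm38.p6, which changed 0 of them. Figures were drawn with matplotlib 3.10.9.

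Per the labels, the 8 pools came from 4 litters and same-numbered arrays share a code, taken here as the litter, so they are paired. The deviations of paired arrays from the group means correlated at 0.28, 0.17, 0.04 and 0.14 in litters 1 to 4. The mean for different litters was -0.05. Taking deviations from group means ties that value to the same-litter ones, so it is no separate baseline, and the pairing rests on the labels. The labels name no test, so the chosen fit has no block, and the litter as a block was an alternative. Others were the constant, the filter, quantile normalization, the choice of probe sets and leaving out arrays or litters. Signals of every array are given for genes with an unadjusted p under 0.05, the 2 genes with the smallest p of each step, the 3 with the smallest p between litters and those known from cartilage disease or mutants. The members and lists were chosen with earlier results of these data known. The number of arrays, 4 per group, limits the precision.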

Additional observations from a re-analysis of the deposited data

Results flagged for a closer look

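In 3 of 72 groups of 4 signals, 1 array stood apart from the other 3 by more than Dixon's 95% critical value, where chance flags about 5% of groups. Papss1, a PAPS synthase, had a signal of 5053 in the array labelled transgenic of litter 1, while the other 3 of that group lay between 4523 and 4581. B4galt7, the galactosyltransferase of the linker, had a signal of 669 in the control array of litter 1, beside 575 to 591 in the other 3. Chst3, the dim chondroitin 6-O-sulfotransferase, had a signal of 33.8 in the array labelled transgenic of litter 3, beside 19.2 to 20.8.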

How the results depend on the processing

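Over 19 alternatives no enzyme gene passed an adjusted p of 0.05 in limma, and the lowest adjusted p of any was 0.84. With the litter as a replicate block, 0 of 34 passed and the median stayed at 0.02; the block changed no call, and unadjusted p values under 0.05 numbered 1248 among all tested probe sets (5.54%) in place of 740. Over all probe sets, 0 to 2 passed when arrays or litters were left out. The median of the 34 genes was 0.068 with probe sets averaged within each gene, those too dim for the test included. With that average, 2 of 34 had an unadjusted p under 0.05 in limma, beside 360 of 10472 genes so tested. The count between litters over all tested probe sets, 109, fell to 30 with no filter, 17 with probe sets averaged within each gene and 10 without litter 1, and was 286 without litter 3 and 70 without litter 4; 0 enzyme genes passed in each of these.

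The sign was the same in all alternatives for 12 of 34 genes and turned in 22, each with an interval across 0 in the chosen fit; beyond the construction of each alternative the cause was not tested. With probe sets averaged within each gene the log2 fold change turned to 0.098 for Chpf2, 0.016 for Chst15, 0.0086 for Csgalnact1, -0.11 for Ext1, -0.24 for Ext2, 0.084 for Extl2, 0.11 for Glce, 0.078 for Hs6st2, 0.089 for Papss2 and 0.017 for Ust. Quantile normalization turned Dse to -0.0096, and leaving out probe sets that can bind several transcripts turned B4galt7 to -0.12. When arrays or litters were left out, values ran from -0.051 to 0.056 for Bpnt2, -0.072 to 0.072 for Chpf, -0.11 to 0.022 for Chpf2, -0.012 to 0.12 for Chst11, -0.036 to 0.024 for Csgalnact1, -0.11 to 0.062 for Dse, -0.018 to 0.083 for Ext2, -0.020 to 0.18 for Extl1, -0.11 to 0.0033 for Extl2, -0.077 to 0.021 for Hs2st1, -0.022 to 0.18 for Ndst2, -0.0040 to 0.058 for Papss1, -0.081 to 0.032 for Papss2, -0.041 to 0.054 for Slc26a2, -0.014 to 0.066 for Ugdh, -0.26 to 0.071 for Ust and -0.26 to 0.084 for Xylt2. Dim probe sets, such as those of Xylt2 and Hs6st1, had the widest intervals, and for Chst3 and Chst13 no difference could be measured.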

Other observations

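Genes of glycosaminoglycan breakdown, which in lysosomes or at the cell surface take these chains apart, had small negative differences. All 13 tested of 16 were lower in arrays labelled transgenic, beside 48.8% of all tested probe sets, with a median log2 fold change of -0.057. That median was -0.088 without the array labelled transgenic of litter 3, -0.115 without litter 3 and -0.090 without litter 4. It was -0.046 with probe sets averaged within each gene, -0.051 with 4 times the constant and -0.052 without the array labelled transgenic of litter 1. Over the 19 alternatives it ran from -0.115 to -0.046. None passed an adjusted or unadjusted p of 0.05 in limma. Hpse, heparanase, averaged 225 ± 42.2 (SD, n = 4) over control arrays, against 169 ± 29.5 (SD, n = 4) over those labelled transgenic. The fitted difference, -0.36 on the log2 scale (95% interval -0.71 to 0.002), had the same sign in 4 of 4 litters. Idua, the iduronidase, was also lower in 4 of 4 litters (-0.23, 95% interval -0.51 to 0.05), and Sgsh, the sulfamidase, was at -0.24. Hexa, a hexosaminidase subunit, and Ids, the iduronate sulfatase, were at -0.004 and -0.008. The count was 13 of 13 under quantile normalization, with other constants and with no filter, 12 of 13 without probe sets that can bind several transcripts, 9 of 12 with probe sets averaged within each gene, and 9 to 13 of 13 when arrays or litters were left out.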
